A study of Mus musculus with 8 samples.

Results

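The cytosolic ribosomal protein genes were followed by RNA-seq in PLP-150Q mice, in tissue from the corpus callosum. Members were chosen by symbol alone, as rows named Rpl or Rps with a number, at most 1 further letter and optional further digits, together with Rplp0, Rplp1, Rplp2 and Rpsa. Rows ending in -ps, which name pseudogenes, were left out. This gave 88 of the 41128 rows of the count table, 51 for the large subunit and 37 for the small subunit.

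PLP-150Q mice carry a transgene for a mutant huntingtin fragment with an expanded glutamine tract, which the proteolipid protein promoter drives in oligodendrocytes. Both groups carried it, so neither is a healthy reference. Treatment began at an age of 3 months and lasted 2 months, and the mice were 5 months old at sampling. The 4 control libraries (replicates 1 to 4) came from mice given purified water. The other 4 libraries (replicates 5 to 8) came from mice given LAQ, read here as laquinimod, at 5 mg/kg. The design text counts 4 mice per group but no label ties a library to an animal, so if some libraries share one, the p-values reflect only sample-to-sample spread that may be technical.

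Each cytosolic ribosome is built from a large and a small subunit, and nearly every ribosomal protein is present as a single copy in it, so cells make these proteins in matched amounts. Their mRNAs typically start with a C followed by an unbroken run of pyrimidines, the terminal oligopyrimidine (TOP) motif, through which mTORC1 and the RNA-binding protein LARP1 control their translation. A count of mRNA does not report translation. In white matter, oligodendrocytes need ribosomes to make large amounts of myelin protein.

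Total counts per library ranged from 8790749 to 12021429, and the members took 0.393% to 0.454% of them. Within each group, every pair of libraries differed beyond counting noise. Oligodendrocyte markers summed to 12324 to 14100 CPM (counts on a common library size after scaling) in control and to 13037 to 17090 CPM in LAQ, so the defining RNA of white matter was present. Markers of cortical excitatory neurons summed to 3224 to 3783 CPM in control and to 2226 to 3731 CPM in LAQ, so the tissue pieces also held neuronal RNA.

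Levels of the ribosomal protein genes were close between LAQ and control, and no member passed the test. By edgeR's quasi-likelihood test with Benjamini-Hochberg adjustment over 15771 genes, 0 of the 81 members above the expression filter had an adjusted p under 0.05, beside 0% of all genes. DESeq2 also called 0 members, beside 0.837% of all genes. Adjusted p-values of the members ran from 0.262 to 0.9996. At an unadjusted p under 0.05 there was 1 of 81 members (1.23%), beside 11.1% of all genes. That member was higher, where 4.77% of all genes were higher and 6.33% lower at that p. A p that misses the threshold does not show that the level was the same. The median standard error was 0.09 on the log2 scale, and even a member at 0.31 (Rps27l) missed the adjusted threshold.

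The log2 fold changes of LAQ over control spread narrowly on both sides of 0. There were 38 positive and 43 negative values, with a median of -0.0023, beside -0.0012 over all genes tested. Only 2 of 81 members (2.47%), Rps27l and Rps3a2, were past 0.2 in size, beside 28.3% of all genes. The 47 large subunit members that passed the filter ran from -0.18 (Rpl10a) to 0.12 (Rpl5), with a median of -0.0023. The 34 small subunit members ran from -0.17 (Rps20) to 0.51 (Rps3a2), with a median of -0.0033. Scatter depends on the depth of counts, and the members were not set against genes of equal depth.

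**Figure D1:**
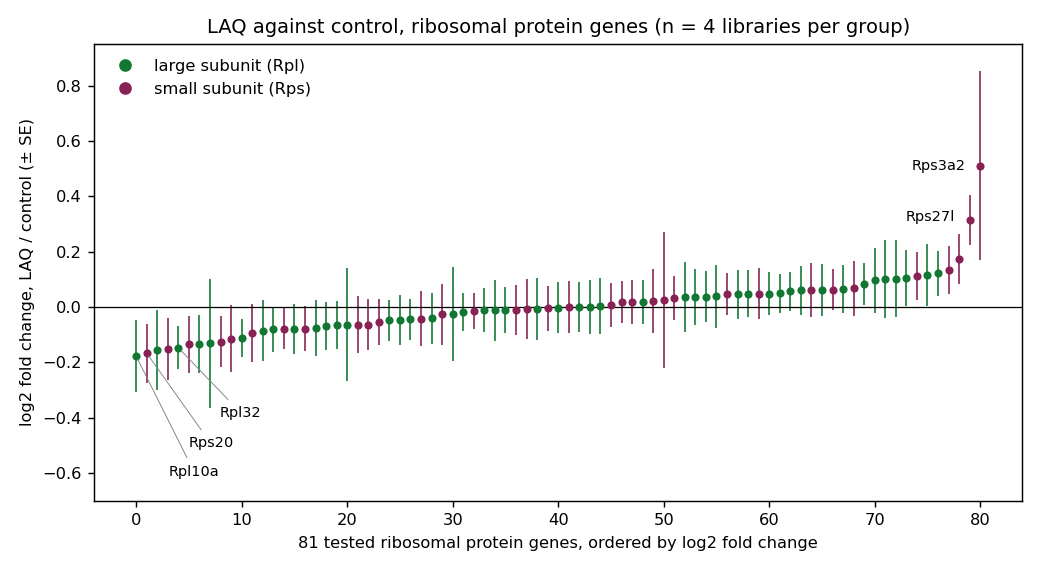
Log2 fold change of LAQ over control (y axis, points, with SE as bars) for the 81 tested ribosomal protein genes, ordered by value along the x axis, in green for the large and purple for the small subunit. Most points lie within 0.2 of the zero line, and Rps27l and Rps3a2 stand above it on the right.

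Rps27l was the single member whose libraries did not overlap between the groups, beside 2.78% of all genes that were higher without overlap. It encodes a close paralogue of the small subunit protein eS27 and is known as a target of p53. In GRCm38 (GENCODE M21) it lies on the plus strand at chr9:66946086-66949516 and is protein-coding. Its level was 20.3, 19.0, 21.6 and 18.8 CPM in control 1 to 4, and 24.0, 25.7, 24.4 and 24.9 CPM in LAQ 5 to 8. All 4 LAQ libraries lay above the highest control library, and the LAQ libraries were close to one another. The group means were 19.9 ± 1.30 and 24.7 ± 0.745 CPM (SD, n = 4 each), and the log2 fold change was 0.31 ± 0.09 (SE).

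The difference of Rps27l did not pass the test over all genes, with an edgeR p of 0.004736 and an adjusted p of 0.262. DESeq2 gave an adjusted p of 0.190. Over all alternatives the adjusted p ranged from 0.109 (without LAQ 7) to 0.559 (without control 2), while the log2 fold change stayed between 0.29 and 0.37. No member was lower without overlap, beside 3.61% of all genes, and 6.39% of all genes lay apart in either direction.

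Rps27, the other gene of the pair, encodes eS27 itself, and its groups were not apart. It lies on the minus strand at chr3:90212522-90213651 in the same annotation. Its level was 45.1, 41.7, 45.8 and 35.0 CPM in control and 36.6, 43.8, 38.9 and 47.1 CPM in LAQ. The groups overlapped over most of their range, with means of 41.9 ± 4.93 and 41.6 ± 4.75 CPM (SD, n = 4 each) and a log2 fold change of -0.01 ± 0.11 (SE). The difference between the changes of the 2 paralogues was not tested.

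The coding sequences of the pair are 252 bases long and identical at 76.2% of positions, with 60 differences. They are shown because the counts of the pair can be told apart only where they differ. From coding positions 4 to 63 (GENCODE M21), with the 19 differing bases in capitals, they read:
Rps27: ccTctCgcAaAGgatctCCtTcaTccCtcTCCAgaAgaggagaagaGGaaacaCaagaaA
Rps27l: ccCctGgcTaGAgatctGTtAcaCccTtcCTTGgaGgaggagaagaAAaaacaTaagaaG
Of the 50-base stretches of the Rps27l transcript, 77.6% occur in no other annotated gene. For Rps27 the share is 1.4%, because 292 of its 296 stretches also occur in the annotated copy Rps27rt, whose row held 3 counts in all. The level of Rps27 is uncertain to that extent.

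**Figure D2:**
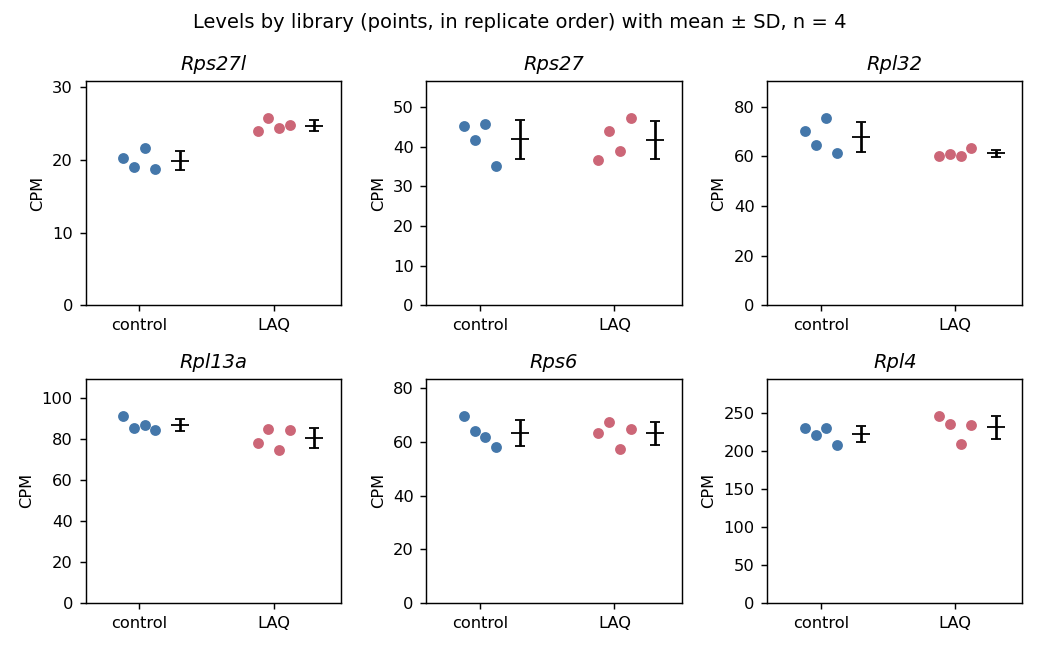
Level in CPM (y axis from 0) of 6 ribosomal protein genes in the control (blue) and LAQ (red) libraries; points are libraries in replicate order and bars are the mean ± SD, n = 4. For Rps27l all LAQ points (24.0 to 25.7 CPM) lie above all control points (18.8 to 21.6 CPM), while the groups of the other panels overlap.

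Among the other small subunit members, Rps25, which several viral internal ribosome entry sites require, stood at 51.3, 44.2, 53.2 and 43.7 CPM in control and at 54.7, 54.5, 48.3 and 53.6 CPM in LAQ. LAQ 5, LAQ 6 and LAQ 8 lay above all control libraries, and LAQ 7 within their range. The means were 48.1 ± 4.86 CPM in control against 52.8 ± 3.00 CPM in LAQ (SD, n = 4 each), or 0.13 ± 0.09 (SE; edgeR adjusted p = 0.593) as a log2 fold change.

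Rps20, a small subunit head protein, averaged 24.7 ± 2.26 CPM in control against 22.0 ± 2.09 CPM in LAQ (SD, n = 4 each), and Rps21 averaged 27.2 ± 2.70 and 24.4 ± 2.92 CPM. Their log2 fold changes were -0.17 ± 0.11 and -0.15 ± 0.11 (SE), and the groups overlapped in both. Rps3a2 had the largest fold change of the family at the lowest level of any tested member. It is annotated as a processed pseudogene, and held 6 to 18 counts per library, or 0.919 ± 0.222 CPM in control against 1.34 ± 0.393 CPM in LAQ (SD, n = 4 each). Its log2 fold change of 0.51 ± 0.34 (SE) had an edgeR adjusted p of 0.607, and 9.8% of its 50-base stretches were its own.

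Of the large subunit members, Rpl32 had the smallest p among negative values. It stood at 70.0, 64.5, 75.3 and 61.2 CPM in control and at 60.1, 60.8, 60.2 and 63.4 CPM in LAQ. The LAQ libraries were close to one another and 3 of them lay below all control libraries. The log2 fold change was -0.15 ± 0.08 (SE; edgeR adjusted p = 0.498). Rpl13a, the subunit of the interferon-induced GAIT complex that represses translation of inflammatory mRNAs, stood at 91.1, 85.3, 86.8 and 84.2 CPM in control and at 77.9, 84.6, 74.5 and 84.4 CPM in LAQ. LAQ 5 and LAQ 7 were the lowest, and LAQ 6 and LAQ 8 lay just above control 4. Its log2 fold change was -0.11 ± 0.07 (SE; edgeR adjusted p = 0.567).

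Rpl10a, the protein tagged for ribosome pulldown in translating ribosome affinity purification, stood at 20.3, 18.04, 20.8 and 20.8 CPM in control and at 16.9, 15.6, 16.0 and 22.5 CPM in LAQ. In LAQ, 3 libraries lay below all control libraries and LAQ 8 above them. Its log2 fold change was -0.18 ± 0.13 (SE). It was -0.31 ± 0.11 without LAQ 8 (edgeR adjusted p = 0.420), a library singled out after its value was seen. Leaving out each library in turn gave -0.31 to -0.12. Over all alternatives the value of Rpl10a lay between -0.31 and -0.11. Since 11.9% of its 50-base stretches were its own, its counts may mix with copies.

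Rpl4, Rpl3, Rps3 and Rpl13 were among the members of highest level, and their groups overlapped too. Rpl4 stood at 229, 221, 230 and 207 CPM in control and at 245, 234, 209 and 233 CPM in LAQ. The log2 fold change came to 0.06 ± 0.07 (SE). The lowest library of each group, control 4 and LAQ 7, was also low for most other members. Rpl3 (uL3, beside the peptidyl transferase centre) and Rps3, which has a role in DNA repair as well, had log2 fold changes of 0.05 and 0.06. For Rpl13 the value was -0.05.

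The proteins of the ribosomal stalk, which recruits elongation factors, also stayed within their library spread. Rplp0, which anchors the stalk, averaged 108 ± 9.17 CPM in control against 107 ± 8.36 CPM in LAQ (SD, n = 4 each). For Rplp1 the log2 fold change was 0.06 ± 0.09 (SE), and for Rplp2 -0.04 ± 0.07. Rpsa, a small subunit protein also known as the laminin receptor, averaged 94.8 ± 6.18 and 95.3 ± 8.36 CPM (SD, n = 4 each).

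Members with a known signalling role gave small values as well. Rps6, the substrate of the S6 kinases below mTORC1, stood at 69.7, 64.2, 61.8 and 58.3 CPM in control and at 63.4, 67.3, 57.2 and 65.0 CPM in LAQ. The ranges nearly coincided and the log2 fold change was -0.01 ± 0.08 (SE). Rpl5 and Rpl11, which with the 5S rRNA bind MDM2 and stabilise p53, had log2 fold changes of 0.12 ± 0.08 and -0.07 ± 0.09 (SE). Rpl38, needed for translation of Hox mRNAs, and Rps19, the gene most often mutated in Diamond-Blackfan anaemia, stood at 0.04 ± 0.11 and 0.02 ± 0.08 (SE). Rps27a, made as a fusion with ubiquitin, stood at 0.11 ± 0.09, and Rpl10, which completes the peptidyl transferase centre late in assembly, at 0.06 ± 0.09 (SE).

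Several members have a paralogue, often one expressed in few tissues. Rpl22 and Rpl22l1, whose coding sequences are 68.2% identical, averaged 28.0 ± 1.92 and 22.0 ± 2.13 CPM in control, against 30.3 ± 4.43 and 21.9 ± 2.43 CPM in LAQ (SD, n = 4 each). Their log2 fold changes were 0.12 ± 0.11 and -0.01 ± 0.11 (SE). Rpl7 and Rpl7l1, 54.0% identical, stood at 0.05 ± 0.09 and -0.01 ± 0.08. Rps4x and Rps4l stood at -0.01 ± 0.09 and 0.03 ± 0.25, and Rps4l, a transcribed pseudogene in the annotation, was spread from 4.67 (LAQ 5) to 12.2 CPM (LAQ 6) within the LAQ group.

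The other paralogues were at or near 0. Rpl3l, the form of heart and skeletal muscle, held 1 to 7 counts per library while Rpl3 (73.2% identical) averaged 163 ± 8.16 CPM in control (SD, n = 4). Rpl39l, the testis form of Rpl39 (85.0% identical), held 1 count in all 8 libraries together. Rpl10l, a testis-expressed copy of Rpl10 (84.7% identical), held 0, which allows a level of up to 0.247 to 0.343 CPM per library (3 counts, counting error only). Rpl39 itself had a log2 fold change of -0.16 ± 0.14 (SE).

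In all, 7 members lay under the expression filter and were not tested. Beside Rpl3l, Rpl39l and Rpl10l these were Rps12l1 and Rps12l2, both at 0 in every library, Rps3a3 with 0 to 3 counts, and Rpl24 with 1 to 4 counts per library. Rps12l1 and Rps3a3 are annotated as processed pseudogenes, and Rps12l2 had no entry in the annotation. Of the 50-base stretches of Rps12l1, 0% were its own, so its count of 0 may not reflect its level. Rpl24, on the plus strand at chr16:55966275-55971435, encodes a standard large subunit protein, so its 16 counts in total stand apart from the other core members. Of its 628 stretches of 50 bases, 436 also occur in the annotated gene Gm28037, whose row held 0 counts. How the authors' counting treated reads that fit several genes is not given in the sources used here, and its part in the level of Rpl24 was not tested.

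Per transcript length, levels of the 79 tested protein-coding members ran over a wide range, from 5.99 CPM per kb (Rpl29) to 198.5 CPM per kb (Rpl41), with a median of 61.5 CPM per kb. Rpl29 and Rpl41 are named here after their values were seen. Most of the proteins enter the ribosome in equal numbers, but the mRNA counts did not show equal levels. Of these members, 78 shared at least 1 stretch of 50 bases with another annotated gene, and 18 had under 20% of their own. The level per kb showed little relation in rank to that share across the 79 members (Spearman's rho 0.03, a description across genes). The 245 pseudogene rows named after 58 members held little, with 134 of them at 0 throughout and summed levels of 14.9 to 19.4 CPM per library. Rplp2-ps1, Rpl3-ps1 and Rps13-ps4 were the highest, at 3.81, 2.41 and 0.767 CPM on average, and neither of the 2 that passed the filter was called.

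The family varied between libraries as a block, and this variation was larger than the difference between the groups. Summed over the members, the level was 4536, 4196, 4379 and 3899 CPM in control 1 to 4 and 4261, 4326, 3944 and 4517 CPM in LAQ 5 to 8. Each group had 1 low library, control 4 and LAQ 7. The group means were 4253 ± 274 and 4262 ± 238 CPM (SD, n = 4 each), a ratio of 1.002, while the highest library was 1.163 times the lowest. In control 4, 72 of 81 members lay below their own mean over the 8 libraries, and in LAQ 7, 68 did. In control 1, 69 lay above it, and in LAQ 8, 68 did.

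**Figure D3:**
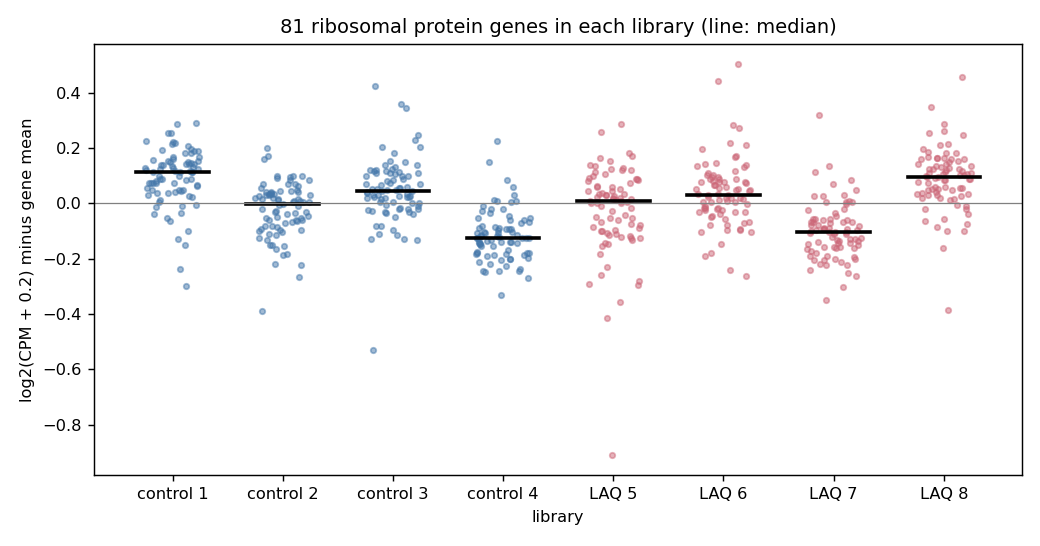
Deviation of each of the 81 tested ribosomal protein genes (points) from its own mean over the 8 libraries, as log2(CPM + 0.2), in control (blue) and LAQ (red) libraries, with the median as a black line. The medians were lowest in control 4 (-0.12) and LAQ 7 (-0.10) and highest in control 1 (0.11) and LAQ 8 (0.10).

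Both subunits moved together between libraries. Large subunit members summed to 2381 to 2754 CPM and small subunit members to 1518 to 1782 CPM. Their ratio ranged only from 1.545 to 1.582, with means of 1.564 ± 0.0156 in control and 1.564 ± 0.0105 in LAQ (SD, n = 4 each).

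**Figure D4:**
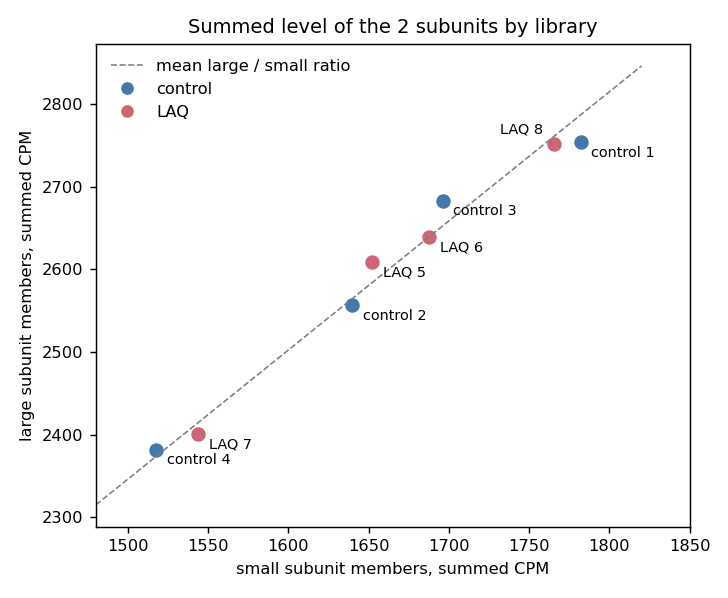
Summed CPM of the large subunit members (y axis) against that of the small subunit members (x axis) in each library, with the mean ratio as a dashed line. Control 4 and LAQ 7 lie at the lower left and control 1 and LAQ 8 at the upper right, all close to the line (neither axis starts at 0).

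Across the 8 libraries the mean pairwise correlation of the members was 0.396, and 0.45 after removing the group means, beside 0 over all genes tested. These are descriptions over points that share a library and its scaling. For mitochondrial ribosomal protein genes the same measure was 0.165 and for initiation factors 0.201. The median correlation of a member with the mean of the others was 0.676, and 62 of 81 were over 0.5. There were 4 members with values below 0, among them Rpl35a, Rpl34 and Rps3a2, singled out after their values were seen, and Rps27l stood at 0.22. The median SD within groups was 0.128 on the log2 scale and 0.0872 after each library was set relative to the members.

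The 2 low libraries were also the deepest, with 11972197 counts in control 4 and 12021429 in LAQ 7. LAQ 7 further had the lowest cortical neuron score (mean z of the markers -1.37, beside -0.57 to 0.51 elsewhere) and the highest oligodendrocyte score (1.71, beside -0.99 to 0.54). Control 4 did not stand apart in either, at 0.14 and -0.37. Both low libraries had the highest endothelial scores, 1.00 in control 4 and 0.90 in LAQ 7, beside -1.88 to 0.42 elsewhere, with summed endothelial markers of 342 and 333 CPM beside 166 to 294 CPM. The endothelial score was singled out after its values were seen. LAQ 6, at -1.88, had a median log2 deviation of the members of 0.03, and control 2, at 0.42, had -0.0021. The part of depth and of tissue makeup in the levels was not tested by library. In bulk tissue, fewer cells of a type and less RNA per cell cannot be told apart.

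Markers of several cell types differed wholly or mostly in one direction between the groups, beside the small differences of the ribosomal genes. All 12 oligodendrocyte markers had positive values (summed ranges above), as had all 7 tested ependymal markers (44 to 58 CPM in control, 68 to 84 CPM in LAQ). All 4 tested blood markers (245 to 533 and 446 to 619 CPM) and all 8 choroid plexus markers (391 to 2517 and 1298 to 3674 CPM) did so too. All 8 endothelial markers (262 to 342 and 166 to 333 CPM) had negative values, and so had 8 of 10 cortical neuron markers. Negative values were also held by 7 of 8 microglia, 6 of 7 oligodendrocyte precursor, 6 of 8 astrocyte and 5 of 7 interneuron markers. At an unadjusted p under 0.05, beside 11.1% of all genes, there were 6 of 12 oligodendrocyte, 6 of 7 ependymal, 4 of 4 blood, 1 of 8 choroid plexus, 1 of 8 endothelial and 3 of 10 cortical neuron markers. In the other lists there were 0 of 8 microglia, 0 of 7 oligodendrocyte precursor, 1 of 8 astrocyte and 2 of 7 interneuron markers. No marker was called by edgeR, while DESeq2 called the cortical marker Cux2 (adjusted p = 0.00163) and the blood marker Hbb-bt (adjusted p = 0.0396). With the cortical score as a covariate the median log2 fold change of the members was 0.06, and with the oligodendrocyte score 0.07, beside -0.01 for all genes with either, and 0 members were called. Rps27l stood at 0.34 ± 0.11 and 0.37 ± 0.13 (SE) in these fits, and Rpl22 at 0.29 ± 0.11 and 0.36 ± 0.13.

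The start sites were examined because these mRNAs are known for the TOP motif. A promoter sequence was given for 63 of the 88 members (RefSeq, GRCm38.p6). A run of at least 5 bases, a C followed only by C or T on the sense strand, with its first base within 5 bases of the annotated start, was found in 29 of them (46.0%). Among all 17492 protein-coding genes with an entry it was found in 21.5%. Mitochondrial ribosomal protein genes, which are not TOP genes as a class, held it in 17 of 68, and other known TOP genes in 5 of 11 (45.5%). Where a gene had more than 1 start (10 of the 63 members), its longest run was used. The RefSeq start lay more than 50 bases from the outermost GENCODE M21 start of the gene in 24 of the 63 members. Annotated starts may therefore not be the ones in use, and a missing run says only that none began within 5 bases of the annotated start.

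The 30 bases around the start, of which the 16th is the annotated first base, are given below with the run in capitals. The members shown are Rps27l and Rps27, the S6 kinase substrate Rps6, and Rpl13a, Rpl10a and Rps21. The last 3 are those with an entry among the 5 members of smallest p with a negative value:
Rps27l (chr9:66946071-66946100, plus strand): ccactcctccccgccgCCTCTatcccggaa
Rps27 (chr3:90213634-90213663, minus strand): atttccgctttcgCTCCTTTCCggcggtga
Rps6 (chr4:86857353-86857382, minus strand): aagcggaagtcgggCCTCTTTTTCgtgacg
Rpl13a (chr7:45128731-45128760, minus strand): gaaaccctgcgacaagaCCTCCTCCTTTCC
Rpl10a (chr17:28328456-28328485, plus strand): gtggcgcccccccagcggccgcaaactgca
Rps21 (chr2:180257364-180257393, plus strand): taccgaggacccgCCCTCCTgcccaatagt
Rps27l has a run of 5 bases, the shortest that counts, where Rps27 has 9. The run of Rpl13a is 14 bases long and continues past the last base shown. Rpl10a had no run that began within 5 bases of its annotated start, as its stretch of C begins farther upstream. The 29 members with a run had a median log2 fold change of -0.02 and a median correlation with the other members of 0.605, and the 30 tested members without one had 0.02 and 0.673. Median levels were 32.4 CPM with a run and 50.1 CPM without one. The differences between these 2 sets of members, and the part of level in them, were not tested.

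Genes that build or regulate the ribosome gave no call either. Of 202 tested genes in the related lists, 0 passed edgeR's adjusted threshold and 0 DESeq2's, and 11 had an unadjusted edgeR p under 0.05, of which 9 were higher and 2 lower. That is 5.45%, beside the 11.1% of all genes. Without overlap between the groups, 7 of the 202 were higher and 3 lower, beside 2.78% and 3.61% of all genes. The median log2 fold change over these lists was 0.01.

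The other TOP genes, which share the motif without being ribosomal, had 11 of 17 positive values with a median of 0.07. Hnrnpa1, a splicing regulator, stood at 32.9, 37.0, 33.6 and 35.8 CPM in control and at 37.5, 40.8, 42.7 and 44.1 CPM in LAQ. The groups did not overlap, but the log2 fold change of 0.25 ± 0.08 (SE) had an edgeR adjusted p of 0.321. Eif3e stood at 0.19 ± 0.07, while the elongation factor genes Eef1a1 and Eef2 stood at 0.07 ± 0.07 and -0.05 ± 0.07 (SE).

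Of 32 initiation factors, 20 had positive values. At an unadjusted edgeR p under 0.05 there were 5 (15.6%), beside 11.1% of all genes. All 5 were higher, where 4.77% of all genes were higher and 6.33% lower at that p. Eif4e, the cap-binding protein, averaged 130 ± 4.42 CPM in control against 147 ± 4.64 CPM in LAQ (SD, n = 4 each), without overlap. The log2 fold change came to 0.18 ± 0.06 (SE; edgeR adjusted p = 0.321). Eif2b3, a subunit of the exchange factor for eIF2, stood at 0.29 ± 0.10 (SE).

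Assembly factors were split, with 17 positive and 16 negative values. Wdr43 and Nop2 stood at 0.25 ± 0.09 and 0.21 ± 0.09 (SE), and Utp14a, of the small subunit processome, at -0.30 ± 0.13. Among 20 regulators of mTORC1 and of TOP mRNAs, 8 had positive and 12 negative values. Of these 20, Deptor, an inhibitor of mTOR, had the smallest p at -0.34 ± 0.13 (SE; edgeR adjusted p = 0.372). Without overlap between the groups, 1 was higher, Cnbp at 0.12 ± 0.06 (SE, edgeR adjusted p = 0.490), and 2 were lower. Larp1, among the 2 lower, averaged 113 ± 4.87 CPM in control against 106 ± 1.80 CPM in LAQ (SD, n = 4 each). Its log2 fold change was -0.09 ± 0.06 (SE; edgeR adjusted p = 0.609). The gap between its groups was narrow, from 107.7 CPM (control 2) to 107.56 CPM (LAQ 7). Mtor stood at -0.08 ± 0.09.

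The 20 RNA polymerase I genes and the 76 tested mitochondrial ribosomal protein genes had no gene at an unadjusted p under 0.05, and their medians were -0.01 and 0.02. Fau, a ribosomal protein made as a fusion with a ubiquitin-like sequence, stood at -0.03 ± 0.10 (SE).

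**Figure D5:**
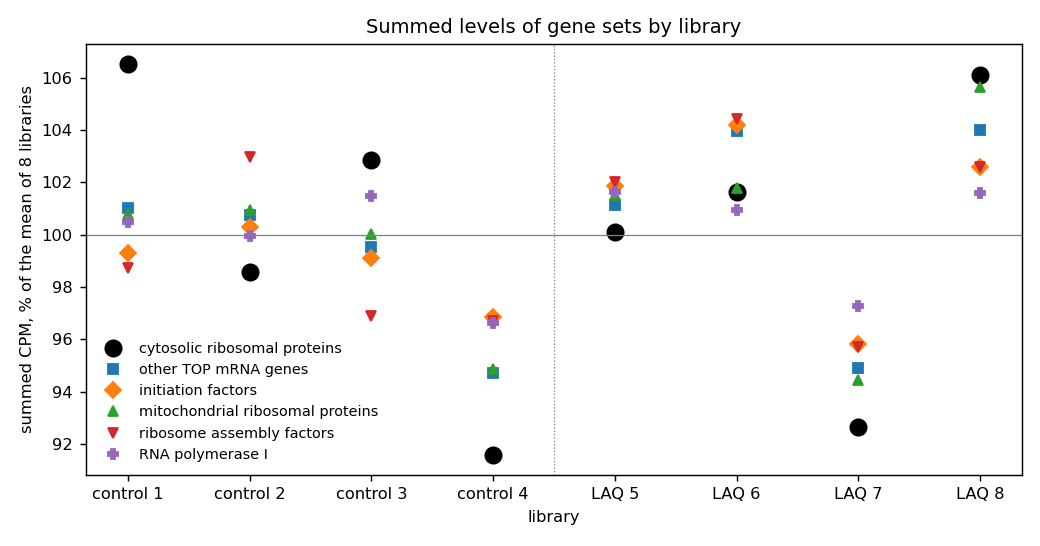
Summed CPM of 6 gene lists in each library (x axis), as a percentage of the mean over the 8 libraries (y axis, not starting at 0). The cytosolic ribosomal proteins (black circles) spread most, and control 4 and LAQ 7 lie below 100 for all 6 lists.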

How the data were processed

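Poly(A) RNA was sequenced from corpus callosum, per the labels' protocols. The authors deposited raw read counts per gene symbol, and a second table of normalized signal, which the deposited values show to be those counts divided by 1 factor per library and which was not otherwise used. STAR 2.5.2b, HTSeq, DESeq2 1.10.1 and bcl2fastq 2.17.1.14 are named in the submitters' processing notes, with the build GRCm38.p3. The annotation release, strand setting, read length and handling of reads that fit several genes are not given in the sources used here. All 8 columns were used, 0 were left out, and 0 rows named no gene.

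Counts were filtered with edgeR's filterByExpr (minimum count 10, minimum total count 15) and scaled by TMM. The groups were compared by the two-sided quasi-likelihood test of edgeR 4.0.16 (R 4.3.3, limma 3.58.1), with no covariate and Benjamini-Hochberg adjustment over 15771 genes at 0.05. The standard error was derived from the log2 fold change and its F statistic. CPM uses the TMM library sizes. Steps were tested on simulated data.

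The members and lists were chosen with earlier results of these data known. Named members were the 5 of highest level, the 5 of smallest p in each direction, those without overlap, a panel of known roles, paralogue pairs and those under the filter, and some genes this rule takes are not reported here. From each related list, up to 4 genes of smallest p and a few of known role were taken. Related lists covered other ribosomal proteins, other TOP genes, initiation and assembly factors, RNA polymerase I, mTORC1 and TOP regulators, and mitochondrial ribosomal proteins. Of their symbols, Rack1 (present as Gnb2l1), Riok2, Efl1 and Utp4 were not found.

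Positions and transcripts came from GENCODE M21 (GRCm38). A member's own share is that of the 50-base stretches of 1 transcript, on either strand, found in no other gene. That transcript was the APPRIS principal one of longest coding sequence and then fewest exonic bases, a rule revised after lengths had been seen; Rps20 and Rpl5 still had long ones. Alternatives covered scaling, filters, DESeq2 1.42.0, voom, marker scores as covariates, pseudogene counts added to members, and leaving out each library. Scaling by the members and excluding control 4 with LAQ 7 were chosen after seeing the data. Figures used matplotlib 3.10.9 and alignments Biopython 1.88.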

Additional observations from a re-analysis of the deposited data

Results flagged for a closer look

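Of 70 groups of 4 libraries examined over the named members and sums, 3 held a library far from the others, where chance gives about 1 in 20. For Rplp0, control 4 stood at 94.43 CPM beside 111.9 to 113.5 CPM in the other control libraries. For Rps4l, control 4 stood at 7.697 CPM beside 9.579 to 9.843 CPM. For Rps4x, LAQ 8 stood at 60.31 CPM beside 49.06 to 50.92 CPM in the other LAQ libraries. In control 4, 72 of 81 members lay below their own mean over the 8 libraries.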

How the results depend on the processing

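No paired analysis was possible because the replicate numbers 1 to 4 and 5 to 8 are not shared between the groups. In all 20 alternatives 0 members were called, including each library left out in turn, and 1 to 3 members had an unadjusted p under 0.05. Over all genes the calls ranged more widely, with 129 by DESeq2, 25 with no filter, 339 without LAQ 7, 469 with the cortical score as a covariate and 327 with the oligodendrocyte score. In the related lists 2 genes were called with the cortical score (Bop1 at 0.39 and Rps6kb2 at -0.54) and 1 with the oligodendrocyte score (Bop1 at 0.48), beside 0 otherwise, and the cause was not tested. The summed level had a log2 ratio of 0.0033, ranging from -0.0308 (without control 4) to 0.0388 (without LAQ 7).

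Of 660 values of the 33 named members tested, 605 kept their direction and 55 changed sign, in 11 members whose size was at most 0.0605 and which passed no test. With the cortical score the values were 0.0784 (Rplp0), 0.0844 (Rps6), 0.0666 (Rpl7l1), 0.1022 (Rpl22l1) and 0.0368 (Rps27). With the oligodendrocyte score they were 0.1115, 0.1028, 0.0742, 0.1535 and 0.1159 for the same genes. With no filter they were 0.0019 (Rplp0), 0.0071 (Rps6), 0.0003 (Rpl7l1), 0.0059 (Rpl22l1), 0.0017 (Rps4x) and 0.0037 (Rps27), and with voom -0.049 (Rps4l). Excluding both control 4 and LAQ 7 gave 0.0023 (Rps6), -0.027 (Rpl38), -0.0327 (Rps19), 0.0479 (Rpl7l1), 0.0207 (Rpl22l1) and -0.033 (Rps4l). Leaving out 1 library gave -0.0022 to 0.1477 (Rpl10), -0.0866 to 0.0495 (Rpl22l1), -0.0298 to 0.0937 (Rpl38), -0.0539 to 0.0463 (Rpl7l1) and -0.0657 to 0.0427 (Rplp0). It gave -0.0335 to 0.0644 (Rps19), -0.0824 to 0.0501 (Rps27), -0.1339 to 0.2491 (Rps4l), -0.0778 to 0.0588 (Rps4x), -0.0396 to 0.046 (Rps6) and -0.0419 to 0.0592 (Rpsa). Values that kept their sign also moved, among them Rpl39 (-0.2588 to -0.0761), Rpl22 (0.033 to 0.1818) and Rpl11 (-0.1217 to -0.0089). The cause was not tested.

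With 4 libraries per group and a median SE of 0.0916, small shifts in single members lie below what these counts resolve. Levels of members that share sequence with copies remain uncertain.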
